A study of Homo sapiens with 43 samples.

Results

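The 9 microRNA genes described here were MIR103A2, MIR15B, MIR16-2, MIR21, MIR7-1, MIR30D, MIR30B, MIR92B and MIR320A, as seen in eCLIP peak lists from HEK293T cells. They were chosen by position, as peaks that overlapped a hairpin or the 100 nt on either side of it by at least 1 nt on the same strand. MIR15B and MIR16-2 lie next to each other and shared 1 window, so there were 8 windows. The window of that pair ended 20 nt after MIR16-2. At these windows lay 58 of the 1430241 peaks in the 25 lists. The genes were picked with values from these lists in view, so every fold below is a description and carries no test.

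eCLIP (enhanced crosslinking and immunoprecipitation) crosslinks proteins to RNA with ultraviolet light, trims the RNA, immunoprecipitates a protein and sequences the RNA that stayed on it. HEK293T is a human embryonic kidney line. The 11 libraries of RNA-binding proteins (RBPs) came from wild-type cells immunoprecipitated for DGCR8, LIN28, RBFOX2, FMR1 or HNRNPC itself (called native here), and from tagged cells with antibodies against V5 (HNRNPC isoform 1, HNRNPC isoform 2, RBFOX2, LIN28) or FLAG (FMR1, DGCR8). The series title states that tags were placed in the endogenous genes with CRISPR/Cas9, and the labels do not say whether a tagged line was 1 clone. The other 14 libraries are titled V5-only or FLAG-only and were cut from 7 overlapping gel ranges of 75 kDa. Whether the cells behind them carried a tag is not in the labels. There was 1 library for each RBP and antibody and 1 for each tag antibody and gel range, so no value has a replicate error. The inputs of the gel ranges carry no antibody in their labels, and there was 1 for each range against 2 immunoprecipitations.

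MicroRNAs are made from long primary transcripts in which the future microRNA is folded into a hairpin. In the nucleus DGCR8, a dimeric RNA-binding protein, holds the hairpin for the nuclease DROSHA, which cuts it free near its base. DICER then removes the loop and one arm of the hairpin is loaded into an Argonaute protein as the mature microRNA, whose bases 2 to 8, the seed, pair with target messenger RNAs. LIN28 is best known for binding the loop of let-7 precursors and blocking their processing.

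Sequences were matched by symbol to RefSeq (GRCh38.p14) for 6 of the 9 genes, and 5 of these had a hairpin entry. MIR7-1 was matched by its mature arms, and MIR30D, MIR30B and MIR320A are given by name. The mature arms are shown because the peaks described below either cover or avoid them, except miR-92b-3p, whose gene had no peak. Capitals mark the seed.
miR-15b-5p: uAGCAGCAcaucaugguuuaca
miR-16-5p: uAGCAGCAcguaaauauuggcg
miR-103a-3p: aGCAGCAUuguacagggcuauga
miR-21-5p: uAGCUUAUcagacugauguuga
miR-7-5p: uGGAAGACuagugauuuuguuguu
miR-7-1-3p: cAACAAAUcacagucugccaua
miR-92b-3p: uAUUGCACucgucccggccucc

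miR-15b-5p and miR-16-5p shared the seed AGCAGCA, which 7 of 2370 distinct RefSeq mature microRNAs carry, and were identical at 14 of 22 positions. The seed of miR-103a-3p, GCAGCAU, occurred in 2 mature microRNAs. That of miR-92b-3p, AUUGCAC, occurred in 6.

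In each list a peak was called significant when its −log10 p and its log2 fold over input were both 3 or more (8-fold). The authors computed both numbers, which serve here only to describe and rank peaks within a list. No read totals were used, so depth in reads is unknown. The lists held 25723 to 100860 peaks.

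DGCR8 was enriched at or beside 7 of the 9 hairpins, in 6 of the 8 windows, with both the native and the FLAG antibody. In the native list 14 of the 17 peaks at the windows were significant, where 4.16% of all peaks in that list were. In the FLAG list 12 of 12 were significant, where 1.78% of all peaks were. The windows were chosen on such peaks, so nothing is read from that contrast. Of 21 pairs of a window and a library with a significant peak, 12 were these DGCR8 values, and the other 9 were at MIR15B in tag-only libraries. MIR92B and MIR320A had no peak in any of the 25 lists, nor within 1 kb of their windows.

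The other RBPs were nearly empty at these windows. The 9 libraries of HNRNPC, FMR1, RBFOX2 and LIN28 held 1 peak in all, an RBFOX2 native peak at MIR103A2 that ended 14 nt before the hairpin and lay at input level (log2 fold −0.09). None was significant, where 2.15% of all HNRNPC native, 0.76% of HNRNPC V5 isoform 1 and 1.97% of isoform 2 peaks were. The share was 5.23% in FMR1 native, 17.2% in FMR1 FLAG, 7.03% in RBFOX2 native and 4% in RBFOX2 V5. LIN28 had no peak at any of the 8 windows in lists where 4.73% of native and 10.6% of V5 peaks were significant. With depth in reads unknown, a missing peak does not show that a hairpin was unbound.

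**Figure D1:**
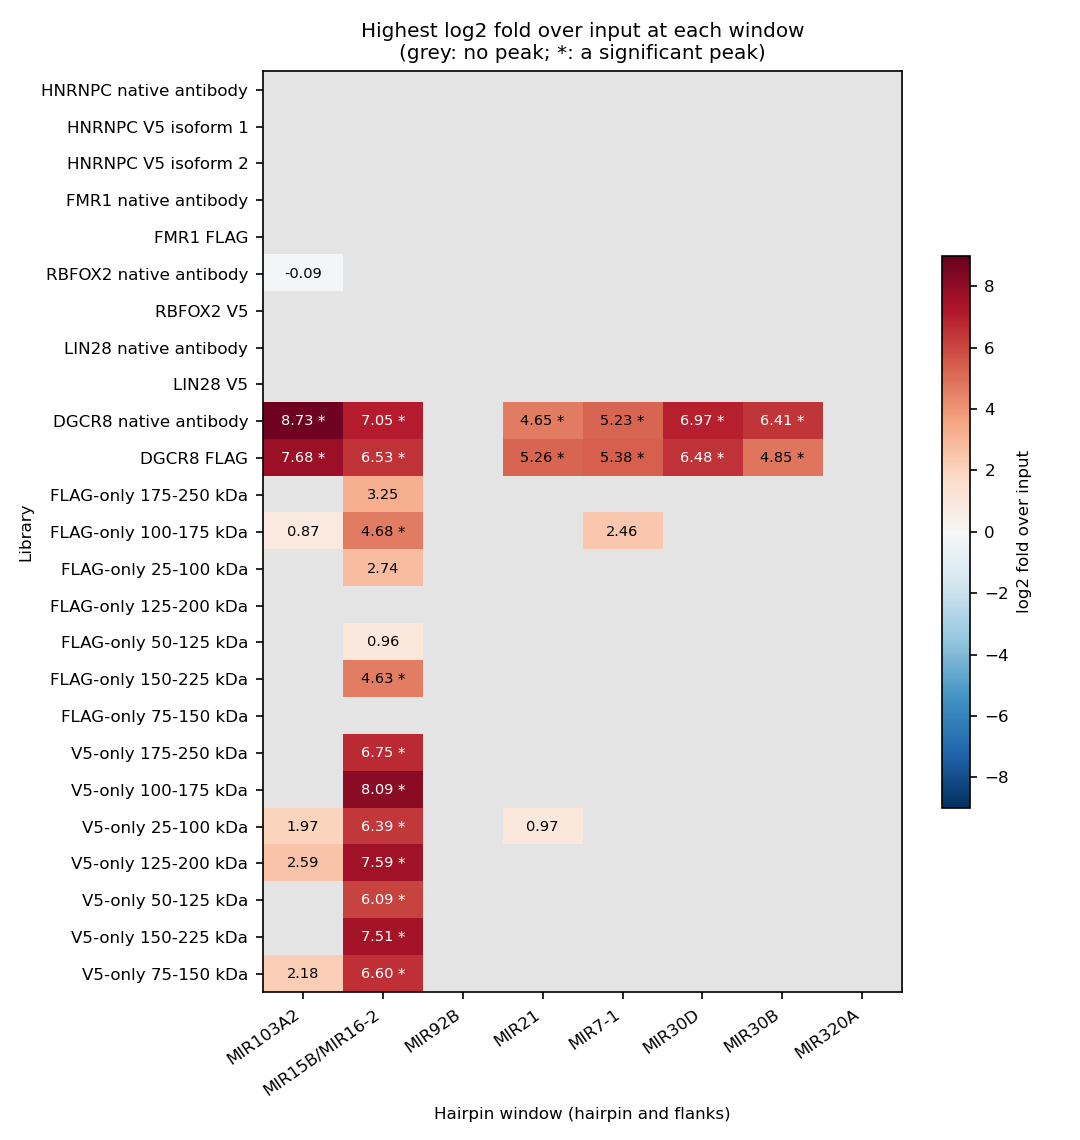
Highest log2 fold over input (colour and printed value) at each hairpin window (columns) in each of the 25 libraries (rows, 1 library each); grey marks a window without a peak and an asterisk a window with a significant peak. Both DGCR8 rows are filled at 6 windows, from 4.65 to 8.73 in native and from 4.85 to 7.68 in FLAG, and the V5-only rows are filled at MIR15B/MIR16-2, from 6.09 to 8.09.

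MIR103A2 had the strongest and longest DGCR8 signal of the windows. It encodes miR-103a-3p, a microRNA that targets metabolic genes, and its hairpin (hg19 chr20:3898141-3898218, plus strand) lies in an intron of the pantothenate kinase gene PANK2 in GENCODE 29. The DGCR8 native list had 5 peaks there, which ran from base −152 to base 71 of the hairpin, where −1 is the base before it. Their log2 folds from the 5′ to the 3′ side were 6.25, 6.93, 7.50, 8.67 and 8.73. The log2 fold was thus highest over the hairpin and lower with distance upstream. The −log10 p ran the other way, at 400 in the peaks wholly before the hairpin and 15.7 in those that reached it. Both values recur as limits of the −log10 p. The top peak, at 3898169 to 3898211, was 425-fold over input and ranked 24 among 33029 peaks.

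The FLAG list gave the same order of folds along MIR103A2 with 3 peaks, at log2 folds of 5.03, 6.03 and 7.68. Their −log10 p again ran the other way, at 400, 79.4 and 15.7. The top FLAG peak was 204-fold over input and ranked 6 among 25723. Every base under the FLAG peaks also lay under native peaks (164 of 164 nt). The native peaks covered 220 nt, and 74.5% of them were shared. On the hairpin the covered bases were as follows, with capitals for bases under a significant peak.
MIR103A2 in DGCR8 native: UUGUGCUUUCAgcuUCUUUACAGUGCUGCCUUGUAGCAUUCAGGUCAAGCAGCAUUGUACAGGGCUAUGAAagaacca
MIR103A2 in DGCR8 FLAG: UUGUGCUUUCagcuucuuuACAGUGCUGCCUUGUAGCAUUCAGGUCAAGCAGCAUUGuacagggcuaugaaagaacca

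The native peaks covered all of the miR-103a-3p arm, bases 48 to 70, and the FLAG peak ended at base 57, inside it. MIR103A2 shares a run of 27 nt with the RefSeq hairpin of MIR103A1 and of 24 nt with that of MIR107. The placing of reads that match several copies was not given in the sources used here, so values on the shared run are uncertain. Peaks that lie wholly before the hairpin, at log2 folds of 6.25 and 6.93 in native and 5.03 in FLAG, are outside it. Within 1 kb of the window DGCR8 had 8 significant peaks in native and 7 in FLAG, and LIN28 V5 had 1 (log2 fold 3.92).

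At MIR103A2 the tag-only libraries had 5 peaks, none significant. FLAG-only at 100 to 175 kDa stood at a log2 fold of 0.87. V5-only stood at 1.97 at 25 to 100 kDa, at 2.59 at 125 to 200 kDa and at 2.18 at 75 to 150 kDa. All were below both DGCR8 values. They lay before the hairpin, and the remaining 10 tag-only lists had no peak there.

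MIR15B and MIR16-2 each carried a DGCR8 peak at the 5′ side of the hairpin and another toward its 3′ side. These genes encode miR-15b-5p and miR-16-5p, of a family known to repress cell cycle and BCL2 messenger RNAs, and both lie in an intron of the condensin gene SMC4. The MIR15B hairpin was at hg19 chr3:160122376-160122473 on the plus strand. MIR16-2 was placed 157 nt further on, by the distance between the hairpin starts in GENCODE 29, on the assumption that it is the same in hg19.

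In DGCR8 native the MIR15B peaks covered bases −19 to 24 (log2 fold 6.41) and bases 47 to 77 (7.05). At MIR16-2 they covered bases −21 to 34 (6.13) and bases 46 to 72 (6.72). Levels in the native list therefore lay within 0.92 on the log2 scale of one another over the 4 peaks. In DGCR8 FLAG the corresponding log2 folds were 6.53 and 4.68 at MIR15B and 4.85 and 4.13 at MIR16-2. The peak at the 5′ side of MIR15B was the highest of the 4 in FLAG and the third highest in native.
MIR15B in DGCR8 native: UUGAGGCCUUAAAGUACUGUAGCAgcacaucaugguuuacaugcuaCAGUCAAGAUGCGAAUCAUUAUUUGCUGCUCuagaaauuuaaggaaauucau
MIR15B in DGCR8 FLAG: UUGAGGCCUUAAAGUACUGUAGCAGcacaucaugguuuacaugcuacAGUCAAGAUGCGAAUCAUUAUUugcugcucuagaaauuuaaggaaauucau
MIR16-2 in DGCR8 native: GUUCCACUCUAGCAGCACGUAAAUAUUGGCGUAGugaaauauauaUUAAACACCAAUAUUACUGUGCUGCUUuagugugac
MIR16-2 in DGCR8 FLAG: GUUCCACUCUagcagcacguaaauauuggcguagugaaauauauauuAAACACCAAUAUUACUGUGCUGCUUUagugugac

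These lines show the gap between the DGCR8 peaks. In native it ran over bases 25 to 46 of MIR15B and took in 17 of the 22 bases of miR-15b-5p. The 3′ peaks began within 2 nt of each other in the native and FLAG lists at both hairpins. MIR16-2 shares a run of 23 nt with MIR16-1, and MIR15B a run of 12 nt with MIR15A, so values on the miR-16-5p arm are uncertain in the same way as at MIR103A2.

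At MIR21 DGCR8 was enriched before the hairpin and, in native, below input over it. miR-21 is among the most abundant microRNAs of many human cell types, and its hairpin (hg19 chr17:57918627-57918698, plus strand) overlaps an exon of at least 1 VMP1 transcript. In DGCR8 native a peak of log2 fold 4.65 (−log10 p 8.81, 25.1-fold) ended 5 nt before the hairpin. The next peak, over bases −5 to 12, stood at −1.07, and the one over bases 13 to 69 at −3.10, which is below input. Neither was significant. The threshold covers only folds above input, so a level below input was not tested. In DGCR8 FLAG a single peak of log2 fold 5.26 (−log10 p 6.47, 38.3-fold) ended 1 nt before the hairpin.
MIR21 in DGCR8 native: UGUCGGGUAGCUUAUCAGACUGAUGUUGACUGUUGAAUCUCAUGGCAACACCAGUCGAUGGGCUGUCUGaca

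Here the capitals mark bases under the peaks with a negative fold, 69 of 72 nt, which include miR-21-5p at bases 8 to 29. MIR21 was the window whose value depended most on where it was read, with a highest log2 fold of 4.65 over the window and −1.07 over the hairpin alone in native. The FLAG list had no peak on the hairpin itself. The only tag-only peak, in V5-only at 25 to 100 kDa, was not significant (log2 fold 0.97).

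MIR7-1 had a DGCR8 peak on the 3′ side of the hairpin in both lists. It encodes miR-7-5p, which is enriched in neural and endocrine cells, and the hairpin (hg19 chr9:86584663-86584772, minus strand) overlaps an exon of at least 1 transcript of HNRNPK. The native peak covered hairpin bases 54 to 86 (log2 fold 5.23, −log10 p 13.9) and the FLAG peak bases 55 to 87 (5.38, 7.06). They shared 32 of the 33 nt of each and lay over miR-7-1-3p at bases 66 to 87. A second native peak over bases 25 to 39, within the miR-7-5p arm at bases 24 to 47, fell just under the threshold (log2 fold 2.74, −log10 p 2.52). FLAG-only at 100 to 175 kDa had a peak on the same arm, over bases 24 to 46, which was not significant either (2.46, −log10 p 1.58).

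The HNRNPK transcript itself was crowded. All 25 lists had a peak within 1 kb of the MIR7-1 window, 112 peaks in all, and 7 lists had a significant one, namely DGCR8 native and FLAG, LIN28 native and V5, HNRNPC V5 isoform 1 and isoform 2, and FMR1 FLAG. The highest log2 folds there were 4.79 in LIN28 V5, 4.56 in LIN28 native, 4.11 in HNRNPC V5 isoform 1, 3.78 in isoform 2 and 3.63 in FMR1 FLAG. None of these peaks reached the window. DGCR8 was the reverse, with its 1 significant peak within that distance lying on the hairpin in each list.

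MIR30D and MIR30B, neighbouring genes of the miR-30 family on chromosome 8 with no overlapping gene in GENCODE 29, had DGCR8 peaks confined to the 3′ side of the hairpin. The MIR30D hairpin was at hg19 chr8:135817119-135817188 and the MIR30B hairpin at chr8:135812763-135812850, both on the minus strand. At MIR30D the 2 adjoining native peaks covered bases 42 to 67 with log2 folds of 6.97 and 6.85, and the 2 FLAG peaks bases 42 to 66 with 6.48 and 6.20. The lists shared 25 nt there, all of the FLAG signal and 96.2% of the native. At MIR30B the native peak covered bases 47 to 75 (6.41, −log10 p 15.7) and the FLAG peak bases 50 to 72 (4.85, −log10 p 4.71). No other library had a peak at either window, so these were the only windows with peaks in DGCR8 lists alone.

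**Figure D2:**
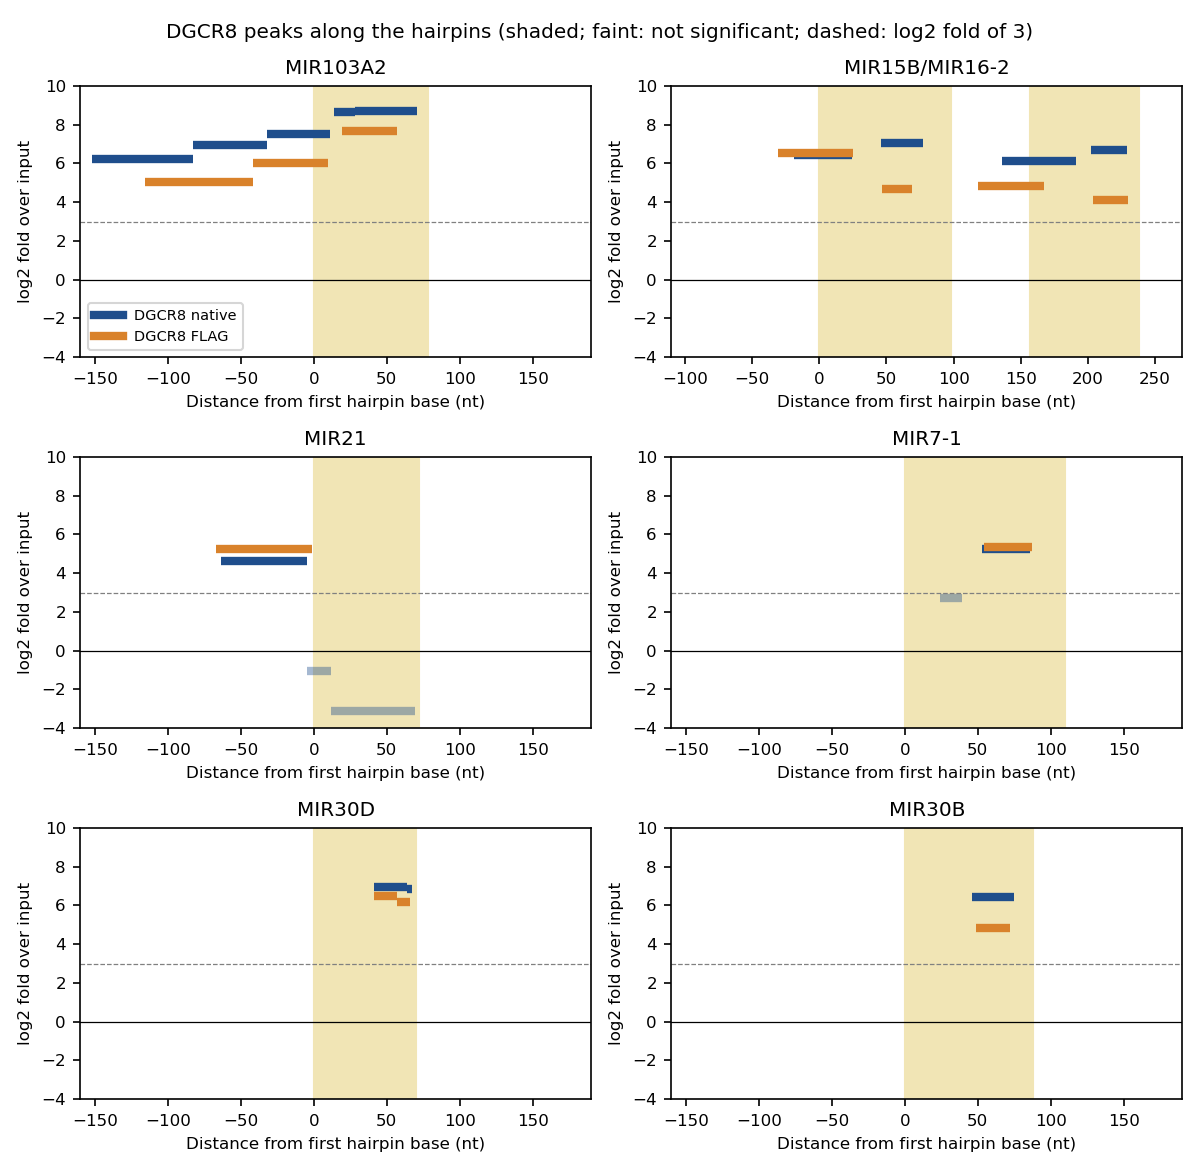
Log2 fold over input (vertical axis) of every DGCR8 peak at 6 windows by distance in nt from the first hairpin base (horizontal axis, 5′ to 3′), native in blue and FLAG in orange; hairpins are shaded, peaks that were not significant are faint and the dashed line is a log2 fold of 3. Significant peaks of both antibodies lie on the 3′ side at MIR30D, MIR30B and MIR7-1 and before the hairpin at MIR21. Native peaks over the MIR21 hairpin and over bases 25 to 39 of MIR7-1, none of them significant, have no FLAG peak beside them.

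At the windows with peaks in both lists, the DGCR8 native and FLAG peaks lay on largely the same bases. At the 6 windows 424 nt lay under significant peaks of both lists, which was 81.1% of the 523 nt of native and 91.4% of the 464 nt of FLAG. Whole peaks were counted, which at MIR103A2 began before the window, and MIR103A2 gave 164 of the shared nt. The windows were chosen with both lists in view, and the share over all significant peaks is not given here. Nothing is therefore read from the size of the overlap. The lists differed on the miR-16-5p arm, bases 10 to 31 of MIR16-2. There the 5′ native peak ran on to base 34 and the FLAG peak ended at base 10. The highest log2 fold was higher in native at 4 windows, by 1.57 at MIR30B, 1.06 at MIR103A2, 0.52 at MIR15B and MIR16-2 and 0.49 at MIR30D. It was lower in native at MIR7-1 (5.23 against 5.38, a difference of −0.14) and at MIR21 (4.65 against 5.26, a difference of −0.61). With 1 library per antibody these differences have no error and were not tested, and whether they exceed the spread between libraries is unknown.

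The order of the windows by highest fold was MIR103A2, MIR15B and MIR16-2, MIR30D, MIR30B, MIR7-1 and MIR21 in native. In FLAG it was the same for the leading 3, and MIR30B came last after MIR7-1 and MIR21. The median of the highest log2 folds over the 6 windows was 6.69 in native and 5.93 in FLAG, beside 4.33 and 4.0 over all significant peaks and 1.74 and 1.68 over all peaks of those lists. In the native list 5 of the 17 peaks at the windows ranked among the leading 100 by fold, and in the FLAG list 7 of 12 did. The windows were chosen on such peaks, and the medians take only the highest peak of each. The 2 windows without a DGCR8 peak are not in them. Nothing is therefore read from these contrasts. Euclidean distances in log2 fold were taken over the libraries in which both windows had a peak, 2 to 6 by pair. The smallest were MIR15B/MIR16-2 with MIR30D (0.098), MIR21 with MIR7-1 (0.60) and MIR7-1 with MIR30B (1.29). For these pairs only the 2 DGCR8 libraries entered, so the V5-only values of MIR15B/MIR16-2 were not part of the distance.

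**Figure D3:**
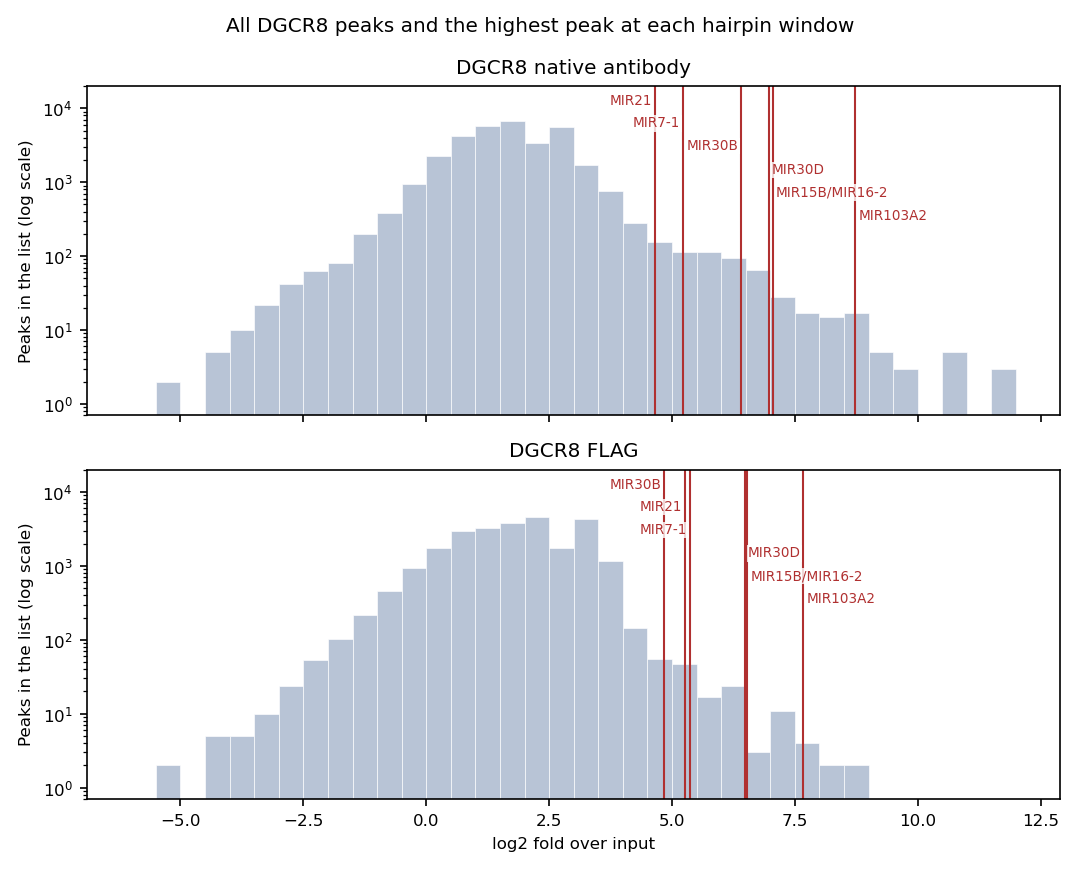
Number of peaks (log scale) by log2 fold over input in bins of 0.5 for the DGCR8 native list (top) and the DGCR8 FLAG list (bottom), with red lines at the highest peak of each hairpin window. The lines stand right of the bulk of both lists, whose medians were 1.74 and 1.68, and MIR103A2 is the rightmost at 8.73 and 7.68. The windows were chosen on such peaks and only the highest of each is marked, so nothing is read from that position.

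MIR15B had a second and unlike signal, in libraries without a named RBP. All 7 V5-only libraries had significant peaks there, 16 of 16, with highest log2 folds of 6.39 at 25 to 100 kDa, 6.09 at 50 to 125 kDa, 6.60 at 75 to 150 kDa, 8.09 at 100 to 175 kDa, 7.59 at 125 to 200 kDa, 7.51 at 150 to 225 kDa and 6.75 at 175 to 250 kDa. These are 68.1-fold to 272-fold over input, and the 7 values lie within the range of the DGCR8 values at the windows. In those lists, in the same order, 0.555%, 1.1%, 2.69%, 1.92%, 11.5%, 3.1% and 1.86% of all peaks were significant. The MIR15B peak had the highest fold of the whole list in 4 of the 7 V5-only libraries and ranked 3, 4 and 4 in the others. Input reads under each peak are unknown, so folds of different libraries, DGCR8 included, do not share a known scale. Some folds recur exactly within a list. Examples are 7.59 at both peaks of V5-only at 125 to 200 kDa, and 6.41 at MIR15B and MIR30B in DGCR8 native. What sets the size of such folds was not tested.

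FLAG-only libraries were lower than V5-only in the 5 ranges where they had a peak. Peaks on the hairpin were present in 4 of 7, at log2 folds of 2.74 at 25 to 100 kDa, 4.68 at 100 to 175 kDa, 4.63 at 150 to 225 kDa and 3.25 at 175 to 250 kDa. Of these, 2 were significant, at 100 to 175 kDa and 150 to 225 kDa, in lists where 6.43% and 11.5% of all peaks were. In the FLAG-only lists without a significant one the share was 1.21% at 25 to 100 kDa, 3.75% at 50 to 125 kDa, 6.7% at 75 to 150 kDa, 22.1% at 125 to 200 kDa and 6.86% at 175 to 250 kDa. The peak at 175 to 250 kDa missed on its −log10 p of 1.84. The library at 50 to 125 kDa had only a peak of 0.96 before the hairpin, and those at 75 to 150 kDa and 125 to 200 kDa had none. The highest FLAG-only value, 4.68, was below the lowest V5-only value, 6.09. The labels give 1 input for each range. The window was chosen with these values known, so the range-by-range values are a description and no test was made.

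**Figure D4:**
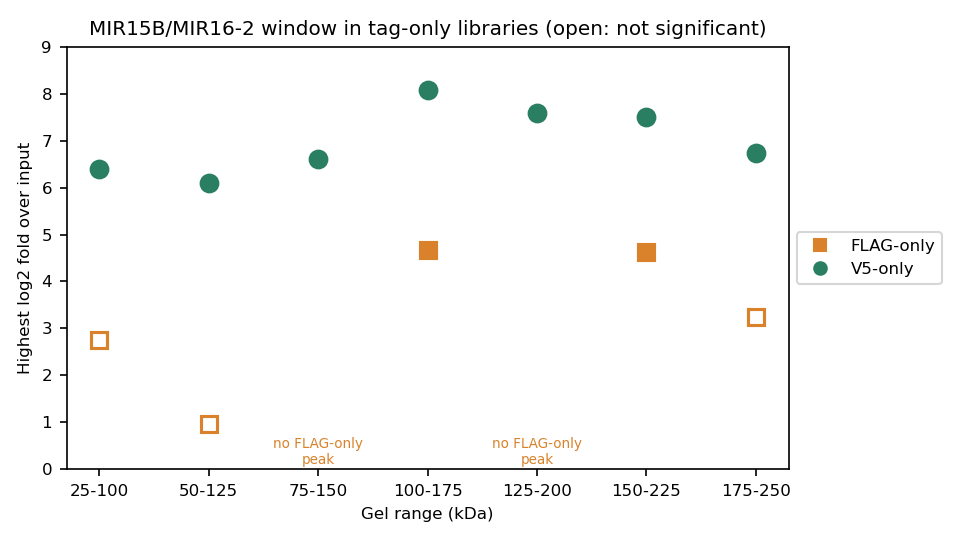
Highest log2 fold over input (vertical axis) at the MIR15B/MIR16-2 window in tag-only libraries by gel range in kDa (horizontal axis), 1 library per point, with open symbols where no peak was significant. The 7 V5-only points lie between 6.09 and 8.09 and the 5 FLAG-only points between 0.96 and 4.68, of which the lowest was a peak before the hairpin.

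The V5-only peaks lay on the mature arm, mostly outside the DGCR8 peaks. In the 7 V5-only lists they began between hairpin bases 10 and 17 and ended at base 41 in 5 lists and at base 42 in 2. miR-15b-5p takes up bases 20 to 41, so the peaks ended at its 3′ end or 1 nt after it. The 23 bases under peaks of all 7 libraries are in capitals here, and 20 of them are bases of miR-15b-5p. The 2 small letters inside the run are missing from 1 library, whose peaks left a gap of 2 nt.
MIR15B in all 7 V5-only libraries: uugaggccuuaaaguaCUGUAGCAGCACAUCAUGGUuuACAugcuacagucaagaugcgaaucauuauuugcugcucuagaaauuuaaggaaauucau

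Of those 23 bases, 15 fell in the gap between the DGCR8 native peaks and 8 under the 5′ one. No V5-only peak reached MIR16-2, whose miR-16-5p arm has the same seed. No tag-only library had a significant peak at any window but this one.

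The V5 libraries of tagged RBPs did not share the signal. HNRNPC isoform 1, HNRNPC isoform 2, RBFOX2 and LIN28, all made with the same V5 antibody and lot in the labels, had no peak at the MIR15B window (0 of 4 lists). Of 10805 regions significant in at least 1 V5-only list, 10 were significant in all 7, and MIR15B was the highest of the 10 by median log2 fold (6.75, the next 5.33). MIR15B was 1 of 2 among the 10 without a peak in any of the 4 V5 lists of tagged RBPs. The window was chosen with these lists in view, and the overlapping gel ranges are not replicates. Nothing is therefore read from its rank or its recurrence. Whether the V5-only reads came from RNA crosslinked to a protein or from another source was not tested, so their folds describe these lists and not binding.

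**Figure D5:**
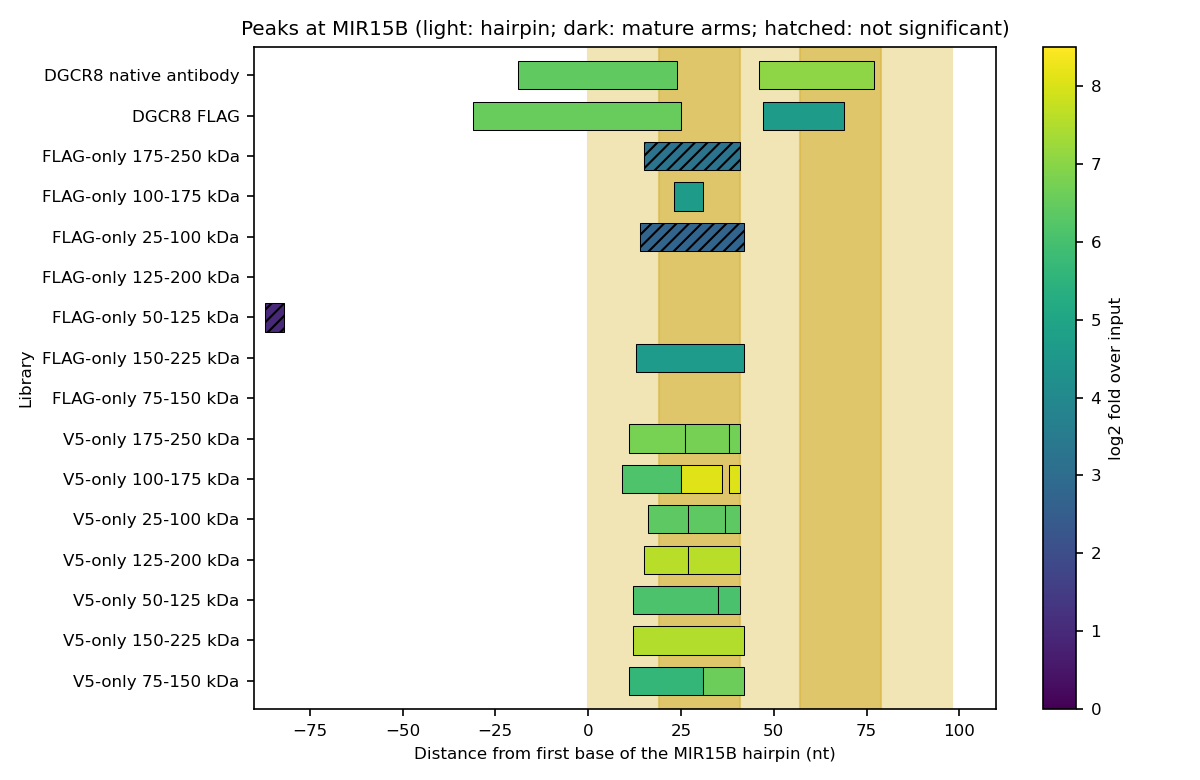
Peaks at MIR15B in the DGCR8 and tag-only libraries (rows) by distance in nt from the first hairpin base (horizontal axis), coloured by log2 fold over input; light shading marks the hairpin, darker shading the miR-15b-5p and miR-15b-3p arms, and hatching peaks that were not significant. V5-only peaks end with the miR-15b-5p arm, at base 41 or 42, while DGCR8 peaks lie to either side of its 3′ part.

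Letters known from the binding preferences of these RBPs were counted on the sense strand only, in the 5 hairpins matched to a RefSeq entry. Genes on chromosome 8 were not matched. GGAG, which the zinc knuckles of LIN28 prefer, was in 1 of 5 (MIR92B) and in 43.4% of all 1562 RefSeq hairpins. GCAUG, the RBFOX2 motif, was in 0 of 5 and 7.23% of all hairpins. UUUUU, bound by HNRNPC, was in 1 of 5 (MIR92B) and 8.96%. UGU and GUG, which overlap each other in UGUG, were in 5 and 3 of 5, beside 79.1% and 80.7% of all hairpins. A match is a description of the letters and not a site.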

How the data were processed

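The authors deposited 1 peak list per immunoprecipitation library (25 of 43 samples), without a header, in hg19. STAR, SAMtools, Picard, GATK and cutadapt are listed per the submitters' processing notes, with no versions. Which program called peaks was not given in the sources used here. Each deposited peak has a −log10 p, capped at 400, and a log2 fold over its size-matched input. For part of the peaks the −log10 p has a second ceiling at 15.7. Values between these limits occur, such as 79.4 in DGCR8 FLAG at MIR103A2, so 15.7 and 400 may not lie on one ordered scale. The 18 inputs entered only through the authors' values. Each list belongs to 1 sample, and depth in reads is unknown.

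From the lists, peaks overlapping each window by at least 1 nt on the same strand were taken with Python 3.11.15 and pandas 2.3.3. BED starts were shifted to 1-based positions. Hairpins were placed 100 nt inside the windows, whose remaining length equalled the GENCODE 29 hairpin length for 7 of 7 single-gene windows. The overlap step was tested on simulated data. All 9 genes are named, and the members, lists and tests were chosen with earlier results of these data known. No test was run, since each group had 1 library. Alternatives varied the threshold, overlap, window, strand and summary.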

Additional observations from a re-analysis of the deposited data

How the results depend on the processing

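The number of windows with a significant peak was equal to its main value in all 25 libraries at a log2 fold of at least 2 and with 50% of the peak inside the window. Over the hairpin alone it was equal in 23 and fell from 6 to 5 in DGCR8 native and FLAG, where MIR21 was lost. At a −log10 p of at least 5 it was equal in 23, fell from 6 to 5 in DGCR8 FLAG, where MIR30B (4.71) was lost, and fell to 0 in FLAG-only at 150 to 225 kDa, whose MIR15B peak had a −log10 p of 4.49. On the opposite strand it was 0 in all 25 libraries. The highest log2 fold of MIR21 in DGCR8 native turned to −1.07 over the hairpin alone and was 0.60 as a mean weighted by bases. That mean moved 7 of 21 highest folds by over 1.5 times, all to lower values. The others were MIR103A2 in DGCR8 native (8.73 to 7.61) and FLAG (7.68 to 6.06), MIR7-1 in native (5.23 to 4.45), and MIR15B in DGCR8 FLAG (6.53 to 5.32) and V5-only at 100 to 175 kDa (8.09 to 7.03) and 75 to 150 kDa (6.60 to 5.97). At MIR103A2 the peak of highest −log10 p gave 6.93 in native, where it tied at 400 with a peak of 6.25, and 5.03 in FLAG. The extension by 1 kb and the count of regions without a peak in tagged V5 lists were chosen after seeing the data. No paired analysis was possible because the groups held 1 library each and share no replicate pairs. Tag-only libraries match by gel range and are given side by side, with no test. Ceilings on the −log10 p hide differences among the strongest peaks.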
